A study of Mus musculus with 4 samples.

Results

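Plasma cells, the antibody-secreting end stage of the B lineage, were picked out of bone marrow by their own transcripts. A barcode counted as a plasma cell when it held at least 20 unique molecular identifiers (UMIs, each standing for 1 captured RNA molecule) of Jchain, at least 10 UMIs of Xbp1, Mzb1 and Derl3 together, and at least 5% of its UMIs from immunoglobulin constant genes. Barcodes first had to show 200 genes or more and no more than 10% of UMIs from mitochondrial genes; 49567 did so, and the rule selected 148 of them. These measured values chose the cells, so the levels of the rule's genes are given below as a description, with no test.

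The marrow came from mice aged 10 weeks in a study of how YAP1, which the Hippo pathway holds in check and which switches on genes together with TEAD factors, bears on marrow cell percentages and gene expression. The 2 groups were YAP1 heterozygotes (2 libraries) and WT mice (2 libraries). Nucleated marrow cells had been sorted by flow cytometry before capture on the 10x Chromium 3' platform. The labels give neither the sort gates nor the nature of the changed Yap1 allele, and they leave unsaid whether each replicate was a mouse of its own.

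A plasma cell turns much of its RNA and its endoplasmic reticulum (ER) over to one product, the antibody. Each cell normally makes a single heavy chain class (IgM, IgA or IgG) and a single light chain (kappa or lambda), and J chain links the units of secreted IgM and IgA. The transcription factors Blimp-1 (Prdm1) and XBP1 drive this state, and XBP1 with ATF6 induces chaperones and degradation factors of the ER through short promoter elements. Bone marrow is a main home of long-lived plasma cells.

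The promoters of 5 genes of this secretory programme are shown because they encode ER factors whose transcripts were at least 5.37-fold above B cells in every library and whose promoters hold a match to a known element; they were chosen with these values seen. Each run is the 250 bases before the RefSeq start site (GRCm38.p6), read in the direction of transcription. Capitals mark 1 of 3 elements searched for on both strands: the ER stress response element ERSE (CCAAT and CCACG with 9 bases between them), ERSE-II (ATTGG and CCACG with 1 base between them) and the unfolded protein response element UPRE (TGACGTGG). All 3 share CCACG on one of their strands. Hspa5 encodes the main ER chaperone BiP (chr2:34771840-34772089, plus strand), Hsp90b1 the chaperone GRP94 (chr10:86705445-86705694, minus strand), and Creld2 an ER-resident protein induced by ER stress (chr15:88819396-88819645, plus strand). Herpud1 encodes a membrane protein of ER-associated degradation (chr8:94386179-94386428, plus strand), and Txndc5 a protein disulfide isomerase (chr13:38527915-38528164, minus strand, 1 of 3 RefSeq starts).
Hspa5: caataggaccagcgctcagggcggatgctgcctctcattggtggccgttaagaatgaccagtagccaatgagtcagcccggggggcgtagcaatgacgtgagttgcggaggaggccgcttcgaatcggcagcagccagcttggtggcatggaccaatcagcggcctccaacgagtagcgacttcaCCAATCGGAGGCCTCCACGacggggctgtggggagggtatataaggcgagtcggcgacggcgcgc
Hsp90b1: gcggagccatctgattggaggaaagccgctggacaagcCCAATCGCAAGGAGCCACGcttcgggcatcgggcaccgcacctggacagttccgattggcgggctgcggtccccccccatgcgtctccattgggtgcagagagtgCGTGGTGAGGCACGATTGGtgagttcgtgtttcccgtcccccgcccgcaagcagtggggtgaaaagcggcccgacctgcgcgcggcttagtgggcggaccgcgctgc
Creld2: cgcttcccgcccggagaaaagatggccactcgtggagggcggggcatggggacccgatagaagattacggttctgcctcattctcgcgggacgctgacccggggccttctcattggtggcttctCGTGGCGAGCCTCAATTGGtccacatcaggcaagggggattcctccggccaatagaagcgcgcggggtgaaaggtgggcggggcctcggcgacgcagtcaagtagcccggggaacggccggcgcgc
Herpud1: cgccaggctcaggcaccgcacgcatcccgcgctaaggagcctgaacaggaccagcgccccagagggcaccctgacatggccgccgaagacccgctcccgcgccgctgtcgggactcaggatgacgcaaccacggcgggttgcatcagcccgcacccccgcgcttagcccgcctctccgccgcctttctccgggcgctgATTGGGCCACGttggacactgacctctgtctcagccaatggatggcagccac
Txndc5: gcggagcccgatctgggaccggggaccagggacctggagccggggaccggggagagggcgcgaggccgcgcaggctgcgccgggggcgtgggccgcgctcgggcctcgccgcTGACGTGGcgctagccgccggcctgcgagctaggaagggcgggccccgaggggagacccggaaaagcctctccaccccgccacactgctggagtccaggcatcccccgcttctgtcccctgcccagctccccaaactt
Hsp90b1 carried 2 ERSE matches, Hspa5 and Creld2 carried 1 each, Herpud1 carried an ERSE-II match and Txndc5 a UPRE match. Over the ER chaperone and disulfide enzyme genes with a RefSeq window, 8 of 23 (34.8%) held an ERSE, against 37 of all 32851 promoter windows (0.113%). The ERSE-II was in 1 of the 23 and in 10 of all windows (0.0304%), and the UPRE in 2 of the 23 and in 185 of all windows (0.563%). An ERSE was in none of the 22 translocation and glycosylation genes, 1 of the 14 degradation genes (Syvn1) and none of the 17 ER to Golgi transport genes with a window. The list figures count genes with a match in any of their windows, while the figures for all windows count single windows. The 23 chaperone and disulfide enzyme genes had 30 windows, so the percentages are on unlike units. A match is only a description of the sequence in this window.

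The marker genes went with the label, apart from 1. All 148 cells had Xbp1 UMIs (median 20 per cell), 142 had Derl3, which encodes a derlin of ER-associated degradation, and 128 had Sdc1, which encodes the plasma cell surface protein CD138 and was not used by the rule. Prdm1 was detected in 120 cells, Irf4, another transcription factor of the plasma cell state, in 119, and Tnfrsf17, the survival receptor BCMA, in 115. Mzb1, an ER co-chaperone usually abundant in plasma cells, went against the label: only 21 of the 148 cells had any UMI of it. The plasma cells held 4 and 3 Mzb1 UMIs in YAP1 heterozygote replicates 1 and 2, against 3 and 17 in WT replicates 1 and 2. Whole libraries held only 41 to 56, so the rule rested in practice on Xbp1 and Derl3. A gene on the same strand overlaps Mzb1 in the GENCODE M21 annotation (Gm50318 in the deposited gene list) and had 0 UMIs in plasma, B, T and plasmacytoid dendritic cells. The part of this overlap in the low count was not tested.

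Members lay well inside the limits, except on the Xbp1, Mzb1 and Derl3 total. The lowest member values were 31 Jchain UMIs, 10 UMIs of the 3 genes together and an immunoglobulin share of 13.5%. Another 14 barcodes had at least 10 Jchain UMIs and failed: every one had 9 or fewer UMIs of the 3 genes, and none failed on the immunoglobulin share. Scrublet, which looks for barcodes resembling 2 cells, marked 3.42% to 4.39% of the kept barcodes of a library and none of the 148, and no barcode was removed. Any pair of libraries shared 27 to 62 barcode sequences. Whole libraries held between 112806900 and 119855112 UMIs. The plasma cells of the replicate 1 libraries held 25 Ddx3y UMIs in the YAP1 heterozygote and 29 in WT, with 0 and 1 Xist UMIs in those libraries. Those of the replicate 2 libraries held 388 Xist UMIs in the YAP1 heterozygote and 753 in WT, with no Ddx3y, so each group held 1 library of each sex pattern. Differences within a replicate number are given below on that account.

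Plasma cells were rare in every library. They numbered 21 and 39 in the YAP1 heterozygote libraries, against 18 and 70 in the WT libraries. Their share of kept barcodes in YAP1 heterozygotes was 0.191% in replicate 1 (95% Wilson interval 0.125 to 0.292) and 0.282% in replicate 2 (0.206 to 0.385). In WT it was 0.139% (0.0877 to 0.219) in replicate 1 and 0.595% (0.471 to 0.751) in replicate 2. The WT libraries thus held both the lowest and the highest share, and the groups overlapped. The group means were 0.237% ± 0.0643 in YAP1 heterozygotes and 0.367% ± 0.323 in WT (SD, n = 2 each; exact two-sided permutation p = 1). With 2 libraries against 2, the smallest p this test can give is 0.333. All intervals here cover counting error only. The difference (YAP1 heterozygote minus WT) was 0.0526 percentage points between the replicate 1 libraries and -0.313 between the replicate 2 libraries. Without WT replicate 2 the difference of the means turned to 0.098 points.

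So few cells carried most of the marrow's antibody RNA. They held 66.2% and 71.6% of all immunoglobulin constant gene UMIs in the YAP1 heterozygote libraries, against 55.1% and 82.6% in the WT libraries. Of all Jchain UMIs they held 95.5% and 98.9% in YAP1 heterozygotes and 96.5% and 96.4% in WT. They were also by far the richest in RNA among the lymphoid classes compared. The rule's floors on raw UMIs favour barcodes with many UMIs, so this contrast is a description with no test. The median plasma cell had 28903 and 22244 UMIs in YAP1 heterozygotes, against 21482 and 24964 in WT, and the groups overlapped. T cells of the same libraries had medians of 4700 to 5372 UMIs, B cells 2888 to 3279 and plasmacytoid dendritic cells 6769 to 7620.

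Antibody constant genes gave most of the UMIs of a typical plasma cell. The median share was 56.6% and 55.2% in YAP1 heterozygote replicates 1 and 2, against 49.4% and 58.3% in WT replicates 1 and 2. The groups overlapped, with a difference of 7.22 points within replicate 1 and -3.18 points within replicate 2, and single cells ran from 13.5% to 83.4%. In B cells the median share was 1.45% to 1.61%, and in T cells, which make no antibody, it was 0.0216% to 0.0307%. The rule required a share of at least 5%, so these differences between classes are a description. Light chain UMIs outnumbered heavy chain UMIs in the typical cell: the median ratio was 2.01 and 2.25 in YAP1 heterozygotes and 1.66 and 2.38 in WT.

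**Figure D1:**
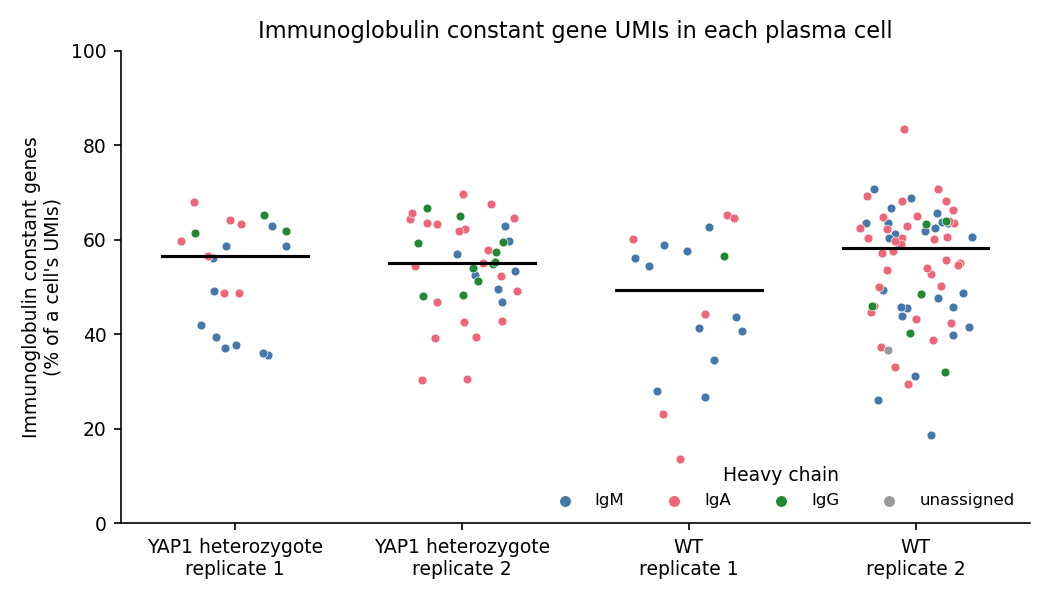
Share of UMIs from immunoglobulin constant genes in each of the 148 plasma cells, in percent, by library, with points coloured by heavy chain class and bars at the library median. Medians lie between 49.4% and 58.3%, and the lowest cell, an IgA cell of WT replicate 1, is at 13.5%.

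Nearly every plasma cell made 1 heavy chain class. A class was assigned where it held at least 80% of the heavy chain constant UMIs, and the leading class held a median of 99.98% of them. IgA was the commonest class with 71 of the 148 cells, IgM followed with 55 and IgG with 21, and 1 cell of WT replicate 2 stayed unassigned, its leading class at 64.6%. The leading light chain held a median of 99.4% of light chain UMIs. Kappa cells numbered 134 and lambda cells 14.

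The class make-up differed between libraries of a group as much as between groups for IgA and IgM. IgA made up 33.3% and 53.8% of plasma cells in YAP1 heterozygote replicates 1 and 2, against 33.3% and 52.9% in WT replicates 1 and 2. The replicate 1 libraries were alike and low, and the replicate 2 libraries alike and high. The means were 43.6% ± 14.5 in YAP1 heterozygotes and 43.1% ± 13.8 in WT (SD, n = 2 each; exact two-sided permutation p = 1). IgM made up 52.4% and 17.9% in YAP1 heterozygotes, against 61.1% and 37.1% in WT, again with overlap. The means were 35.2% ± 24.3 in YAP1 heterozygotes and 49.1% ± 16.9 in WT (SD, n = 2 each; exact two-sided permutation p = 0.667). The YAP1 heterozygote differed by -8.73 points within replicate 1 and -19.2 points within replicate 2.

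IgG cells took a larger share in both YAP1 heterozygote libraries than in either WT library. They were 3 of 21 (14.3%, Wilson interval 4.98 to 34.6) and 11 of 39 (28.2%, 16.5 to 43.8) in YAP1 heterozygotes. In WT they were 1 of 18 (5.56%, 0.988 to 25.8) and 6 of 70 (8.57%, 3.99 to 17.5). The groups did not overlap, at 21.2% ± 9.84 in YAP1 heterozygotes against 7.06% ± 2.13 in WT (SD, n = 2 each), and the exact two-sided permutation p of 0.333 is the smallest the design allows. The difference was 8.73 points within replicate 1 and 19.6 points within replicate 2. It rests on 14 cells in YAP1 heterozygotes and 7 in WT, and the counting intervals of the libraries overlap. Ighg2b led in 11 of the 21 IgG cells and Ighg2c in 8. Ighg2b cells numbered 2 and 7 in YAP1 heterozygotes and 0 and 2 in WT, and Ighg2c cells 1 and 3 in YAP1 heterozygotes and 1 and 3 in WT. The others were 1 Ighg1 cell of YAP1 heterozygote replicate 2 and 1 Ighg3 cell of WT replicate 2.

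Lambda cells were the rarer in both YAP1 heterozygote libraries. They were 1 of 21 (4.76%, Wilson interval 0.846 to 22.7) and 1 of 39 (2.56%, 0.454 to 13.2) there, against 4 of 18 (22.2%, 9 to 45.2) and 8 of 70 (11.4%, 5.91 to 21) in WT. The kappa share averaged 96.3% ± 1.55 in YAP1 heterozygotes and 83.2% ± 7.63 in WT (SD, n = 2 each), without overlap, and the exact two-sided permutation p was again 0.333. It was 17.5 points higher in the YAP1 heterozygote within replicate 1 and 8.86 points higher within replicate 2. Iglc1 led in 8 of the 14 lambda cells, Iglc2 in 5 and Iglc3 in 1. The lambda constant genes are close copies, so reads may have been shared between them.

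**Figure D2:**
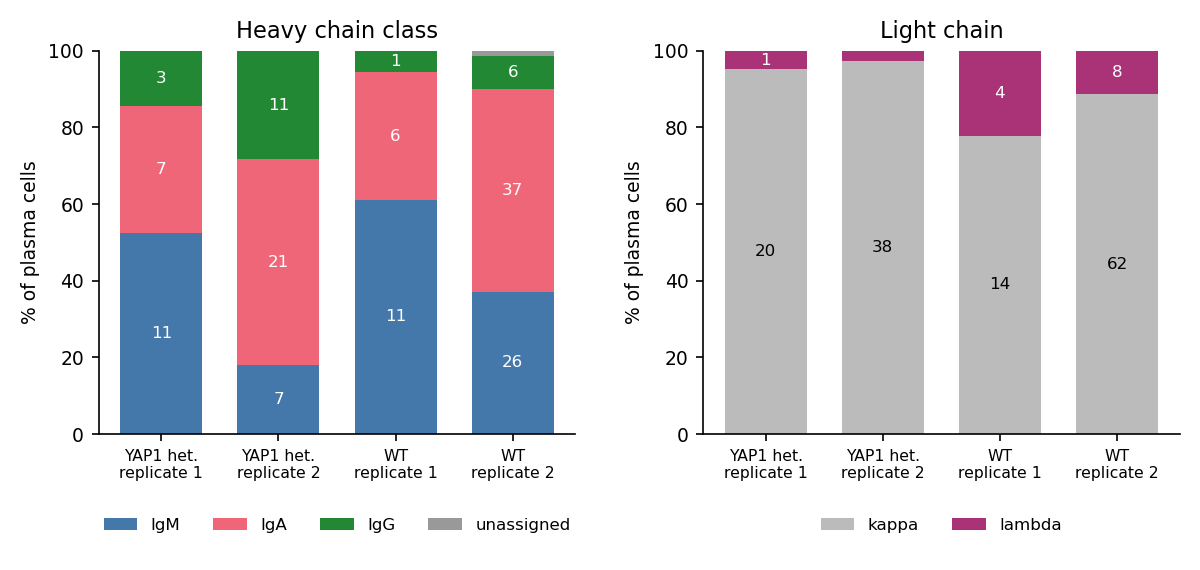
Percentage of plasma cells of each library by heavy chain class (left) and light chain (right), with the number of cells written in bars above 4%. IgG is at 14.3% and 28.2% in the YAP1 heterozygote libraries and at 5.56% and 8.57% in the WT libraries, and lambda at 4.76% and 2.56% in YAP1 heterozygotes and 22.2% and 11.4% in WT.

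J chain RNA differed with the class. Jchain took a median of 6.39% of UMIs in IgA cells, 4.04% in IgM cells and 2.13% in IgG cells. In IgG against IgA cells the medians were 4.79% and 7.12% in YAP1 heterozygote replicate 1, 2.58% and 6.68% in YAP1 heterozygote replicate 2, 5.64% and 6.15% in WT replicate 1 (1 IgG cell) and 1.43% and 6.31% in WT replicate 2. IgG cells were thus the lower in every library. Since at least 20 Jchain UMIs were required, IgG cells with less were not counted, and the lowest IgG member had 163.

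Most pairs of heavy and light variable segments were seen in a single cell. In 144 cells both the leading heavy and the leading light variable segment had at least 3 UMIs, and they formed 100 distinct pairs. Of these pairs, 84 were seen in 1 cell, and 16 pairs covered the other 60 cells. Ighv1-81 led in 18 cells, 17 of them IgA. With Igkv1-117 it formed the commonest pair, in 9 cells over all 4 libraries, and with Igkv1-110 it was seen in 8 cells over 3 libraries. Ighv11-2 with Igkv14-126, a pair known from mouse B-1a cells that bind phosphatidylcholine, was seen in 6 IgM cells, all in WT replicate 2. Ighv8-8 with Igkv4-68 was seen in 6 IgM cells, 4 in WT replicate 1 and 2 in WT replicate 2. Variable segments have near-identical copies and no junction sequence was read here, so a pair does not prove a clone.

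The secretory machinery stood out against other lymphoid classes of the same libraries. Levels are compared here as CPM outside the immunoglobulin genes, that is, UMIs scaled to a total of 1000000 that leaves out antibody RNA, which would dilute everything else. T cells, B cells and plasmacytoid dendritic cells were taken by small marker rules of their own. Because the plasma cells were chosen by their transcripts, these ratios are a description with no test. All 25 ER chaperone and disulfide enzyme genes were higher in plasma cells than in B cells in all 4 libraries, as were all 15 genes of ER-associated degradation, 18 of 19 ER to Golgi transport genes and 23 of 28 genes of translocation, signal peptide cleavage and glycosylation. The same held for 1184 of 10490 genes overall (11.3%). The median member was 5.1-fold, 4.37-fold, 2.7-fold and 3.63-fold higher in that order of lists, against a median of 0.698-fold over all genes.

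Single genes of the programme reached much higher ratios. Txndc5 stood 30.3-fold and 21.1-fold above B cells in YAP1 heterozygotes, and 38.1-fold and 23.7-fold in WT. Creld2 stood 21.4-fold and 31-fold above B cells in YAP1 heterozygotes and 33.3-fold and 28.7-fold in WT. Both are in the list of ER folding factors, whose total was 6.15-fold and 7.32-fold that of B cells in YAP1 heterozygotes and 7.54-fold and 6.46-fold in WT. Hsp90b1 was 8.2-fold and 11.9-fold above B cells in YAP1 heterozygotes and 12.3-fold and 9.54-fold in WT. Hspa5 was 5.37-fold and 5.95-fold above in YAP1 heterozygotes and 6.87-fold and 5.95-fold in WT. Outside folding, Edem1, which recognises misfolded glycoproteins for degradation, was 14.6-fold to 24-fold above B cells, and Ssr4, a subunit of the translocon-associated complex, 13-fold to 19.1-fold. Plasmacytoid dendritic cells, which also secrete, came nearest: the folding factor total of plasma cells was 3.73-fold and 4.42-fold theirs in YAP1 heterozygotes and 4.9-fold and 3.64-fold in WT.

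The B cell programme was low but not gone. Of 20 B cell identity genes, 19 were lower in plasma cells than in B cells in all 4 libraries, against 48.4% of all genes, with a median of 0.114-fold. Pax5, the factor that holds B cell identity and is silenced by Blimp-1, stood at 7.69 and 2.52 CPM in YAP1 heterozygote plasma cells and 4.43 and 12.2 in WT plasma cells, against 401 to 518 in B cells. Cd74, the invariant chain of MHC class II, was the exception, at 0.954-fold and 0.868-fold the B cell level in YAP1 heterozygotes and 1.22-fold and 0.81-fold in WT. Tnfrsf17 was at 226 to 264 CPM in plasma cells and at most 0.253 CPM in B cells. The respiratory chain total was near that of B cells, at 0.936-fold and 1.09-fold in YAP1 heterozygotes and 1.15-fold and 1.04-fold in WT.

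**Figure D3:**
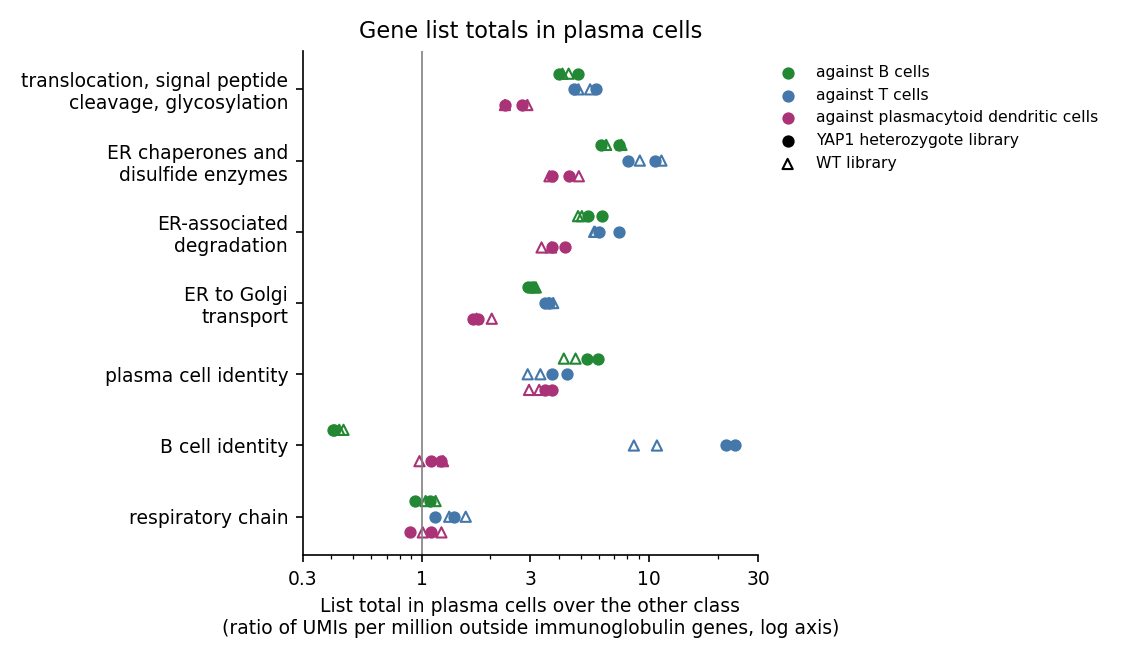
Totals of 7 gene lists in plasma cells divided by those in B cells, T cells or plasmacytoid dendritic cells of the same library, as ratios of CPM outside immunoglobulin genes on a log axis. Filled circles are YAP1 heterozygote libraries and open triangles WT libraries. The 4 secretory lists lie between 1.68 and 11.3 in every comparison, while the respiratory chain lies between 0.886 and 1.56.

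Between the genotypes, the secretory genes of plasma cells did not pass the test. UMIs of a library's plasma cells were added up, and the sums went into the quasi-likelihood test of edgeR. Levels from here on are TMM-normalised CPM over all UMIs of the plasma cells. Of 4261 genes tested, 7 passed an adjusted p of 0.05 (0.164%), all lower in YAP1 heterozygotes and none higher, and 199 had an unadjusted p under 0.05. Groups that did not overlap were common, with 16.4% of all genes higher and 17.6% lower in both YAP1 heterozygote libraries, so a gene without overlap carries little by itself. The median log2 fold change over all genes was 0.02. Yap1 itself had 0 and 0 UMIs in the plasma cells of the YAP1 heterozygote libraries and 0 and 1 in those of WT. A count of 0 allows up to 5.19 and 3.4 CPM in YAP1 heterozygotes and 7.21 CPM in WT replicate 1, so these cells cannot show whether Yap1 differed, and they check no genotype.

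None of the 28 translocation and glycosylation genes, 25 folding genes, 15 degradation genes and 19 tested transport genes passed. Their median log2 fold changes were 0.04, 0.06, 0.24 and -0.12. Hspa5 was at 1370 and 1359 CPM in YAP1 heterozygotes, against 1931 and 1383 CPM in WT (log2 fold change -0.28, SE 0.23, edgeR adjusted p = 0.999). Hsp90b1 was at 2164 and 3181 CPM in YAP1 heterozygotes and 2797 and 2321 CPM in WT, with full overlap. Ssr4 was at 1502 and 2085 CPM in YAP1 heterozygotes and 1321 and 1303 CPM in WT (0.45, SE 0.23). Edem1, at 494.6 and 529.1 CPM in YAP1 heterozygotes and 386.2 and 310.9 CPM in WT, had an unadjusted p of 0.0356 (edgeR) and an adjusted p of 0.999. Lman1, the cargo receptor between ER and Golgi, was at 220.7 and 233.1 CPM in YAP1 heterozygotes and 213.9 and 217.7 CPM in WT. Of the 8 tested sensors and factors of the unfolded protein response none passed (median -0.18); Atf4 was at 151.7 and 119.2 CPM in YAP1 heterozygotes and 170.3 and 161.1 CPM in WT.

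Genes of plasma cell identity, homing and survival did not pass either. Of 17 identity genes 14 had a positive and 3 a negative log2 fold change, with a median of 0.26, against 2214 positive and 2047 negative over all genes. Ly6c2, a surface antigen of mouse plasma cells, was at 965.6 and 830.3 CPM in YAP1 heterozygotes and 708.1 and 568.5 CPM in WT (0.49, SE 0.22, edgeR adjusted p = 0.999). Trp53inp1, a p53 target that acts in autophagy, was at 581.3 and 425.6 CPM in YAP1 heterozygotes and 386.2 and 285.1 CPM in WT. Tent5c, a poly(A) polymerase that stabilises antibody RNA, was at 374.4 and 395.5 CPM in YAP1 heterozygotes and 315.6 and 304.5 CPM in WT. The 11 tested homing genes had a median of 0.15 and the 8 survival genes one of 0.2. Mcl1, on which plasma cells depend to survive, was at 329.1 and 297.3 CPM in YAP1 heterozygotes and 259.6 and 219.9 CPM in WT. Bcl2 was at 104.4 and 79.89 CPM in YAP1 heterozygotes and 41.53 and 58.2 CPM in WT, with an unadjusted p of 0.0189 (edgeR) and an adjusted p of 0.999.

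The remaining lists had no called gene among their tested members except the marker lists of 2 other cell types. Median log2 fold changes were 0.03 for 11 B cell identity genes, 0.06 for 7 genes of amino acid transport and synthesis and 0.05 for 20 respiratory chain genes. They were -0.21 for 15 NF-kB targets and -0.05 for 16 immediate early genes. They were 3.35 for 4 erythroid genes, 0.94 for 3 macrophage genes, 0.05 for 6 genes of plasmacytoid dendritic cells and 0.21 for 13 neutrophil genes, and 0 genes of the T cell, basophil and megakaryocyte lists passed the filter on low counts. Of the erythroid UMIs, 1258 sat in 1 cell of YAP1 heterozygote replicate 2. Fos, an immediate early gene that cell handling can induce, was at 1982 and 1666 CPM in YAP1 heterozygotes and 1611 and 2028 CPM in WT. The genes used by the rule were tested along with the rest, and are given as levels only: Jchain at 60910 and 62360 CPM in YAP1 heterozygotes and 40930 and 46910 CPM in WT, and Xbp1 at 1021 and 1251 CPM in YAP1 heterozygotes and 934.4 and 862.2 CPM in WT. Iglc1 followed the lambda cells, at 904.5 and 2651 CPM in YAP1 heterozygotes and 35540 and 29590 CPM in WT.

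The 7 called genes were genes of other marrow cells. Elane and Prtn3 encode granule proteases of early neutrophil precursors, Mpo their myeloperoxidase, and Fcnb a ficolin of the same lineage. Ms4a3 is expressed in granulocyte and monocyte precursors, Serpinb1a encodes an inhibitor of neutrophil proteases, and Nkg7 encodes a granule protein best known from cytotoxic lymphocytes. Elane was at 23.65 and 18.33 CPM in YAP1 heterozygotes, against 396.6 and 784.6 CPM in WT (log2 fold change -4.83, SE 0.42, edgeR adjusted p = 0.00834). Prtn3 was at 17.74 and 11.79 CPM in YAP1 heterozygotes, against 336.4 and 646.1 CPM in WT (-5.09, SE 0.44, edgeR adjusted p = 0.00834). Both WT libraries were high and both YAP1 heterozygote libraries low. Mpo was at 25.62 and 13.1 CPM in YAP1 heterozygotes and 247.1 and 267.8 CPM in WT, and the log2 fold changes of Mpo, Ms4a3, Serpinb1a, Fcnb and Nkg7 lay between -5.04 and -3.26, with adjusted p of 0.00834 to 0.019 (edgeR). Of the 8 genes of the neutrophil precursor list 5 were called, and all 8 were lower in both YAP1 heterozygote libraries, with a median of -4.3. Ms4a3 had 1 and 3 UMIs in YAP1 heterozygotes against 43 and 193 in WT. Nkg7 had 1 and 1 against 27 and 105, and Fcnb 3 and 4 against 120 and 212. These 3 passed the filter on low counts through the WT libraries, so they could hardly come out higher in YAP1 heterozygotes. Most WT UMIs of the called genes sat in the same few cells (below), so the calls are not separate support. When the replicate number, which goes with the sex transcripts, was added to the edgeR fit as a block, 0 genes were called (196 at an unadjusted p under 0.05). The log2 fold changes of the 7 genes were then -5.05 to -3.25, with adjusted p of 0.0633 to 0.0715 (edgeR).

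In WT, 76.9% to 99.2% of the UMIs of each called gene in a library sat in 5 cells. The 5 held 289 to 1546 UMIs of the precursor list each, 2 of them in WT replicate 1, 3 in WT replicate 2 and none in the YAP1 heterozygote libraries, while no other plasma cell had more than 15. They held 95.3% and 98.4% of the Elane UMIs of the WT plasma cells, 95.7% and 97.6% of the Prtn3 UMIs and 93.3% and 96.6% of the Mpo UMIs. Outside them, Elane was at 20.8 and 15.9 CPM (unscaled by TMM) in YAP1 heterozygotes and 25.8 and 14 CPM in WT, and the groups overlapped. Outside them Nkg7 was at 1.73 and 1.13 CPM in YAP1 heterozygotes and 11.5 and 4.66 CPM in WT, which rests on 1 and 1 UMIs against 4 and 8. In the whole libraries the precursor list took 6814 and 5064 CPM in YAP1 heterozygotes and 6889 and 5597 CPM in WT, with overlap.

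Neutrophil RNA fell into 2 ranges over the plasma cells. A list of 13 genes of maturing and mature neutrophils, such as S100a8 and S100a9, took at most 0.8% of UMIs in 129 cells, with a median of 0.195%. In the other 19 cells it took 1.43% to 19.8%, with a median of 9.69%. These 19 were 5 of 21 (23.8%, Wilson interval 10.6 to 45.1) and 3 of 39 (7.69%, 2.65 to 20.3) in YAP1 heterozygotes, against 2 of 18 (11.1%, 3.1 to 32.8) and 9 of 70 (12.9%, 6.91 to 22.7) in WT. T cells, which should lack these genes, showed a median share of 0.305% to 0.442% at median depths of 4700 to 5372 UMIs, and 9.89% to 14.1% of them lay at 1% or more. These shares are over all UMIs, and antibody RNA takes up much of the plasma cells' total: the median plasma cell held 52 neutrophil UMIs beside 9948 UMIs outside immunoglobulin genes. On the scale outside immunoglobulin genes, the neutrophil list summed over all plasma cells stood at 0.765-fold and 0.448-fold the T cell level in YAP1 heterozygotes and 0.496-fold and 0.789-fold in WT. Against B cells the same sum stood at 1.38-fold and 0.652-fold in YAP1 heterozygotes and 0.693-fold and 1.28-fold in WT. Against plasmacytoid dendritic cells it stood at 2-fold and 0.688-fold in YAP1 heterozygotes and 1.14-fold and 2.02-fold in WT. The median over all plasma cells was 0.182% and 0.199% in YAP1 heterozygotes and 0.31% and 0.196% in WT. The means of these medians were 0.191% ± 0.0116 in YAP1 heterozygotes and 0.253% ± 0.0803 in WT (SD, n = 2 each; exact two-sided permutation p = 0.667), and the difference was -0.128 points within replicate 1 and 0.0024 points within replicate 2.

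The 19 cells with much neutrophil RNA were larger in UMIs and genes. They had medians of 34365 UMIs, 3931 genes and an immunoglobulin share of 40.2%, while the other 129 had medians of 22515 UMIs, 2462 genes and 58.6%. Their leading heavy chain class held a median of 99.97% of heavy chain UMIs. Of the 5 cells with precursor RNA, 4 were among the 19, at 9.69% to 11.2%, and the fifth was at 0.57%. Without the 19 cells 0 of 3341 genes tested were called (edgeR, 151 at an unadjusted p under 0.05), and 3 of the 7 genes were still tested: Elane, Prtn3 and Mpo had log2 fold changes of -3.15, -4 and -2.22, with the precursor-rich cell at 0.57% still among the WT cells. When every cell with RNA of another type was left out (29 cells: 5 and 7 in YAP1 heterozygotes, 3 and 14 in WT), Elane and Mpo were the only ones of the 7 still tested, at log2 fold changes of 0.48 and 0.63 (edgeR adjusted p = 0.952 each). The 1 gene then called was Iglc1, a gene the rule used.

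**Figure D4:**
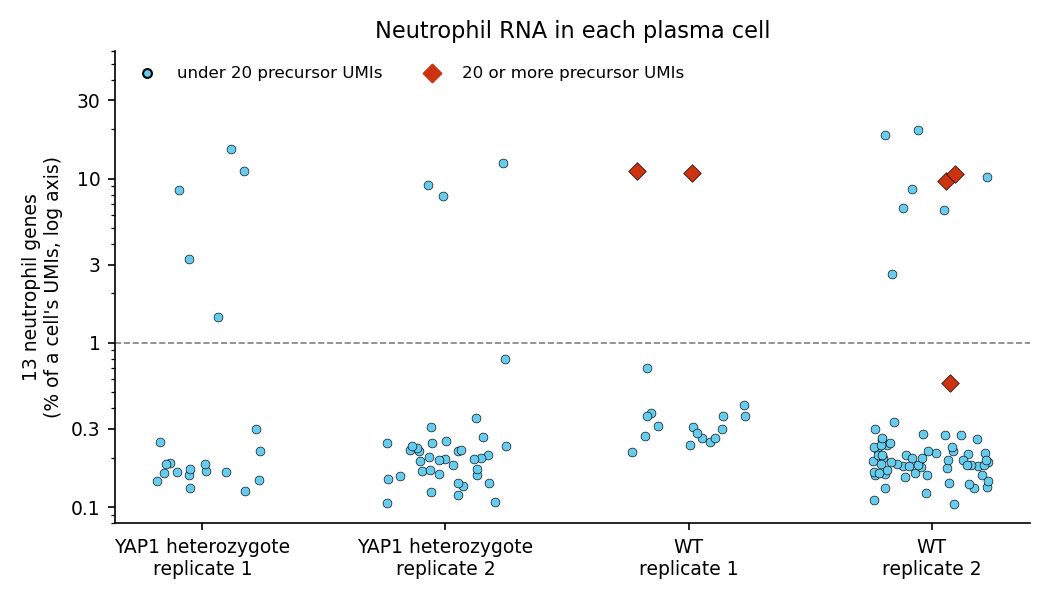
Share of UMIs from 13 neutrophil genes in each of the 148 plasma cells, in percent on a log axis, by library, with diamonds for cells with 20 or more UMIs of the neutrophil precursor list and a dashed line at 1%. The 129 cells below the line reach 0.8% at most, and the 5 diamonds all belong to WT libraries.

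**Figure D5:**
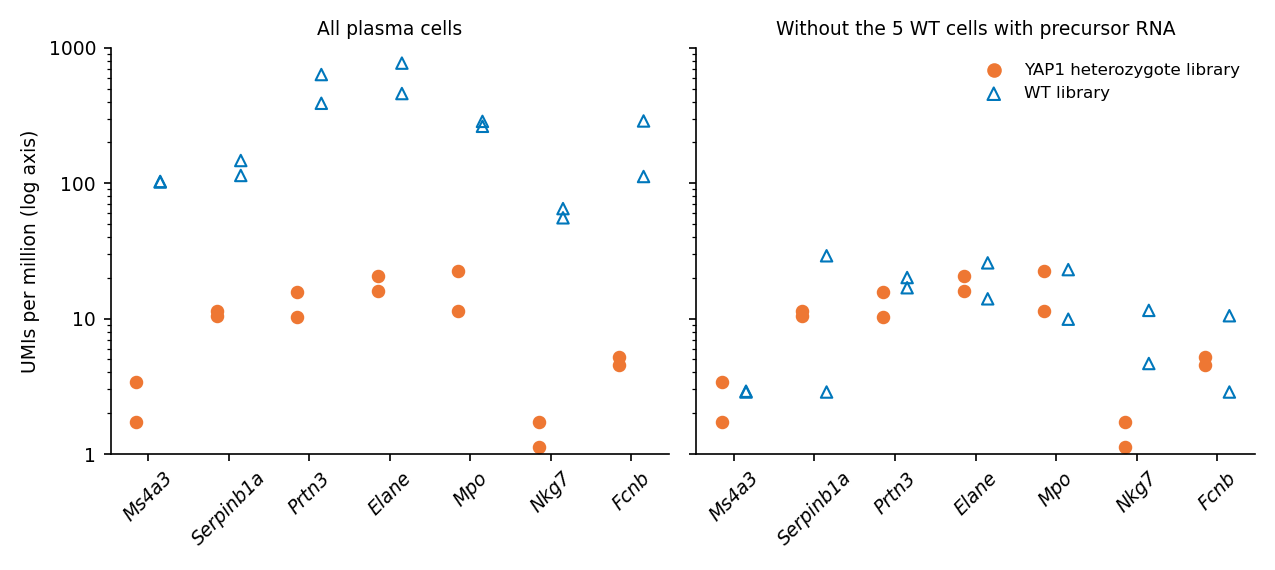
CPM, without TMM scaling, of the 7 called genes in the summed plasma cells of each library on a log axis, over all plasma cells (left) and without the 5 WT cells with precursor RNA (right). Elane is at 20.8 and 15.9 in YAP1 heterozygotes on both sides, and in WT at 459 and 770 on the left and 25.8 and 14 on the right.

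Few plasma cells were dividing. A cell counted as dividing with at least 10 UMIs of 16 mitosis genes such as Mki67 and Top2a. There were 1 of 21 (4.76%, Wilson interval 0.846 to 22.7) and 1 of 39 (2.56%, 0.454 to 13.2) in YAP1 heterozygotes. In WT there were 3 of 18 (16.7%, 5.84 to 39.2) and 8 of 70 (11.4%, 5.91 to 21), and the counting intervals of the libraries overlap. The library shares of the groups did not overlap, at 3.66% ± 1.55 in YAP1 heterozygotes and 14% ± 3.7 in WT (SD, n = 2 each; exact two-sided permutation p = 0.333, the smallest possible). The difference was -11.9 points within replicate 1 and -8.86 points within replicate 2. None of the 11 tested mitosis genes and 8 tested S phase genes passed the edgeR test (medians of -0.73 and -0.59); Mki67 was at 65.03 and 115.2 CPM in YAP1 heterozygotes and 193.1 and 113.7 CPM in WT.

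Many dividing cells carried RNA of other cell types. Of the 13 dividing cells 6 had at least 1% neutrophil RNA, 1 of YAP1 heterozygote replicate 2 held 1258 erythroid UMIs and 1 of WT replicate 2 held 1546 precursor UMIs. The other 5 were all WT, 1 of 18 cells in replicate 1 and 4 of 70 in replicate 2, against 0 of 21 and 0 of 39 in YAP1 heterozygotes. A count of 0 cells allows a share of up to 14.3% and 7.69% there. Of these 5, 2 held 429 and 435 UMIs of B cell identity genes, against a median of 70 over all plasma cells, and 1 of the 2 had the lowest Jchain count of all members, 31. Dividing cells had a median immunoglobulin share of 30.4% and 44545 UMIs, while the other 135 cells had medians of 57.5% and 22540 UMIs. The floor on raw mitosis UMIs favours barcodes with many UMIs, and RNA of other cells adds to a barcode's total. This contrast is therefore a description with no test. The difference of the dividing share was -10.4 points over all plasma cells. It was -5.83 points without the cells with neutrophil RNA and -6.9 points without every cell with RNA of another type. The median log2 fold change of the mitosis genes tested was -2.76 without the latter cells, against -0.725 with them. The part of other cells' RNA in the difference between genotypes was not tested beyond these values.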

How the data were processed

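Single-cell RNA was measured in 4 bone marrow libraries, 2 of YAP1 heterozygotes and 2 of WT mice. The authors deposited UMI counts per gene and barcode as whole numbers with no normalization. The tool version is uncertain: Cell Ranger 5.0.0 per the file headers, but 3.0.0 per the submitters' processing notes, which also name Seurat 4.3.0 and the GRCm38 (mm10) genome. The plasma cells of a library held 416339 to 1890776 UMIs.

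T cells were taken by at least 3 Cd3 UMIs, B cells by at least 5 Cd79 UMIs and a second marker criterion that is not reported here, and plasmacytoid dendritic cells by at least 5 Siglech UMIs, all without the plasma cells. A fold over B cells per gene was computed from library means with 1 CPM added, for genes with at least 100 UMIs over both classes. Counts were summed per library and tested with edgeR 4.0.16 (filterByExpr, TMM factors, quasi-likelihood test, Benjamini-Hochberg over all genes tested) in R 4.3.3. Scrublet ran in scanpy 1.11.5 at a rate of 0.8% per 1000 barcodes. The fit was also run on simulated counts, drawn independently per gene and library. Those counts did not copy a few cells holding most UMIs of a gene, so they do not bear on such calls. Shares and per-cell medians were compared over libraries by an exact permutation test, with Wilson intervals at 95%. The p-values measure the spread between these libraries.

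The members, gene lists and the lists' tests were chosen with earlier results of these data known. The text names the rule genes, the called genes that are neither gene models nor variable segments nor sex chromosome genes (average log2 CPM of at least 4, no overlap, up to 12 in a direction) and, from each list, called members and the 4 highest by mean CPM. Genes set against B cells, and Ddx3y and Xist, were chosen after their values were seen. Alternatives were DESeq2 1.42.0 and its size factors, no filter on low counts, a replicate block, stricter and looser cell selection, Scrublet doublets left out, a 5% mitochondrial limit, immunoglobulin genes left out, the top cell of each gene left out, a 60% chain purity, pooled neutrophil shares, a limit of 5 mitosis UMIs and each library left out. Leaving out cells with RNA of other types (at least 1% neutrophil, 20 precursor, macrophage or plasmacytoid, 10 T cell or 100 erythroid UMIs) was added after seeing the data. Promoter windows are RefSeq's and were shown for genes chosen with their values seen.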

Additional observations from a re-analysis of the deposited data

How the results depend on the processing

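Against 7 genes called in all plasma cells, the count was 144 with no filter on low counts and 25 with the top cell of each gene left out. Under the stricter selection it was 4, that is, 3 of the 7 and Iglc1. Elane, Prtn3, Mpo and Serpinb1a then had edgeR adjusted p of 0.0559 to 0.0631. The count was 0 without the cells with neutrophil RNA and 1 without those with RNA of any other type. It was 39 without YAP1 heterozygote replicate 1, 14 without YAP1 heterozygote replicate 2, 89 without WT replicate 1 and 106 without WT replicate 2, where a group of 1 borrows its spread from the other, and each of the 7 was called in all 4 such fits. DESeq2 called 10 genes, 8 of them lower, including all 7. With the replicate block 0 genes were called (196 at an unadjusted p under 0.05; edgeR adjusted p of 0.0633 to 0.0715 for the 7). The labels do not tie the replicate numbers to animals or batches, while the sex transcripts go with the number in both groups. Elane and Mpo turned to 0.48 and 0.63 (log2) without cells with RNA of other types; the 5 precursor-rich cells are among those left out.

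Some differences of shares (YAP1 heterozygote minus WT, percentage points) changed sign. For IgA, 0.495 turned to -0.836 under the looser selection, -0.22 at 60% purity, -3.79 without neutrophil RNA cells and -2.83 without cells with RNA of other types, and ran from -9.76 (without YAP1 heterozygote replicate 2) to 10.8 with 1 library left out, also negative at -9.27 without WT replicate 1. With 1 library left out, the plasma cell share ran from -0.358 to 0.098 (without WT replicate 2), IgM from -31.2 to 3.25 (without YAP1 heterozygote replicate 2), the immunoglobulin share from -2.45 (without WT replicate 1) to 6.49, and the median UMIs per cell from -979 (without YAP1 heterozygote replicate 1) to 5680. Without neutrophil RNA cells the immunoglobulin share differed by -0.1. The cause was not tested. IgG (7.22 to 21.1), kappa (7.77 to 18.6) and the dividing share (-13 to -5.83) kept their direction over these ranges of all alternatives run. Their groups do not overlap, so leaving out 1 library could not turn the sign. With 1 library left out the dividing share ran from -13 to -7.77. Neutrophil RNA ran from -0.119 to -0.0058 as per-cell medians and was -0.22 as a share pooled over cells, which is another measure. Its groups overlapped, and within replicate 2 the difference of medians was 0.0024. With 18 to 70 cells a library, counting error alone spans 10 or more points for most class shares.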

Other observations

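Outside the secretory lists, plasma cells differed from B cells of the same libraries in several gene groups (CPM outside immunoglobulin genes, a description with no test). Immediate early genes, which signals and cell handling switch on within minutes, stood at 2.69-fold and 1.93-fold the B cell total in YAP1 heterozygotes and 2.59-fold and 2.53-fold in WT. Of the 20 members 9 were higher and 3 lower in all 4 libraries, and the median member was 1.37-fold the B cell level. Genes of amino acid transport and synthesis stood at 2.22-fold and 2.02-fold in YAP1 heterozygotes and 1.91-fold and 2.16-fold in WT, with 7 of 12 measured members higher and 3 lower in all 4 libraries. Over all genes, 11.3% were higher and 48.4% lower in all 4 libraries. All 16 mitosis genes were lower than in B cells in all 4 libraries, at a total of 0.159-fold and 0.373-fold in YAP1 heterozygotes and 0.426-fold and 0.526-fold in WT.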
